A study of Mus musculus with 412 samples.

Results

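Colonic sensory neurons of the mouse that expressed Piezo2 and lacked Gfra3 were compared between the thoracolumbar (TL) and the lumbosacral (LS) levels of the spine. Expression is given in TPM, a length-corrected share of each neuron's transcripts, obtained by taking the deposited log2 values off the log scale and rescaling each neuron to a total of 1000000. A neuron was included when at least 9500 genes were above 0, Piezo2 reached at least 10 TPM and Gfra3 stayed under 10 TPM, so both genes chose the neurons and neither is a finding. The rule found 111 of the 325 neurons in the deposited table, or 111 of the 279 with at least 9500 genes. Of these, 49 came from the 139 TL neurons with enough genes and 62 from the 140 LS neurons.

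The study labelled neurons by injecting the retrograde tracer Fast Blue into the colon wall of C57BL/6J mice. Dorsal root ganglia (DRG) from T10 to L1 were taken as TL and those from L5 to S2 as LS. Each set was dissociated into its own primary culture, and single tracer-positive neurons were picked by pipette and sequenced by Smart-seq2, which amplifies polyadenylated RNA over its full length. The labels assign each neuron to a spinal segment and to 1 of 6 library plates, and state no treatment for either group. They name no mouse for a neuron, so TL and LS count as 1 sample each. Cells are not replicates, no p-value was computed, and the agreement of library plates is the measure of spread used throughout. Neurons that the tracer did not reach were not sampled.

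Piezo2 encodes a mechanically gated cation channel that serves touch and proprioception, and Gfra3 encodes the receptor for artemin, a growth factor of the GDNF family, and is found in many peptidergic visceral nociceptors. The colon receives spinal afferents by a pair of routes. Fibres from TL ganglia run in the splanchnic nerves and those from LS ganglia run in the pelvic nerve, which is known for its stretch-sensitive endings in the distal bowel. Hox genes encode transcription factors laid out along the body axis in the order of their clusters, with the last genes of a cluster used most caudally.

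**Figure D1:**
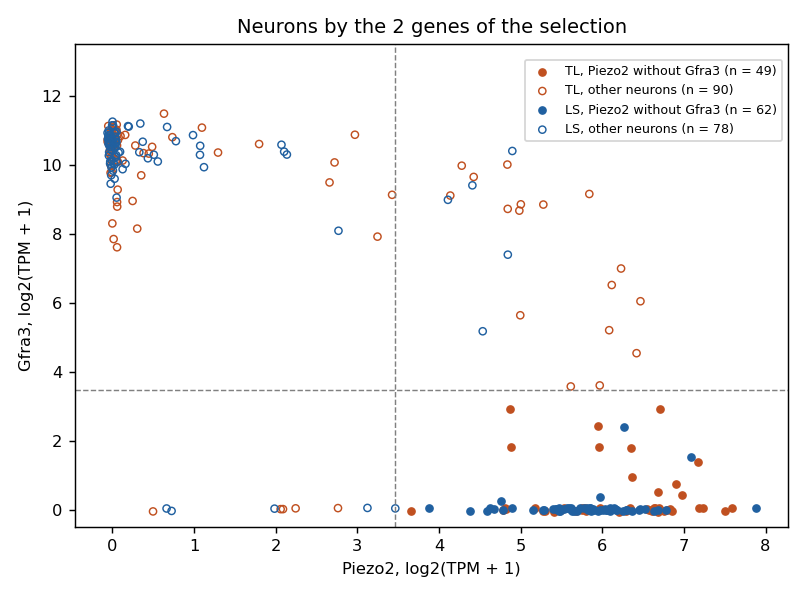
Gfra3 against Piezo2 in the 279 neurons with at least 9500 genes above 0, both as log2(TPM + 1), with points moved slightly at random so that they do not hide each other. Dashed lines mark 10 TPM. The 49 TL and 62 LS neurons of the comparison (filled) lie at the lower right, and most of them have Gfra3 at 0.

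Piezo2 ranged from 11.9 to 191 TPM in the 49 TL neurons, with a median of 78.0. In the 62 LS neurons it ranged from 13.2 to 241 TPM, with a median of 55.8. The ranges overlapped almost fully, while the TL median was the higher in each of plates 2 to 6. Gfra3 was listed at 0 in 38 TL and 58 LS neurons, and lay between 1 and 10 TPM in 7 TL and 2 LS neurons, just inside the limit. Just outside it, at 10 to 20 TPM, there were 2 TL neurons and 0 LS neurons with Piezo2. For Piezo2, 1 TL and 2 LS neurons lay between 10 and 20 TPM inside the rule, and 1 TL and 2 LS neurons lacking Gfra3 lay between 5 and 10 TPM outside it. Neurons with both genes at 10 TPM or more numbered 17 in TL and 5 in LS.

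The neurons of the rule made up 35.3% of TL neurons (95% exact interval 27.3 to 43.8%) and 44.3% of LS neurons (35.9 to 52.9%), and these intervals overlap. By plate the TL share ran from 15.2% in plate 4 to 47.4% in plate 3 among plates 2 to 6, and the LS share from 39.4% in plate 5 to 50.0% in plates 2 and 4. The LS share was the higher in plates 2, 4 and 6, and the TL share in plates 3 and 5. Plate 1 held 3 TL neurons and no LS neuron of the rule, so differences were taken within plates 2 to 6, where each plate held at least 5 TL and 9 LS neurons. Intervals of shares cover counting error alone.

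Genes above 0 numbered 9902 to 17102 per TL neuron (median 13775) and 9564 to 17193 per LS neuron (median 14460). The LS median was the higher in each of plates 2 to 6, and the part of this in the calls below was not tested. Reads on genes, estimated from the steps of the values, had medians of 3498860 in TL and 4035040 in LS. The sensory neuron list, which includes Tubb3, Uchl1, Snap25 and Avil, was present in all 111 neurons. Its summed level was 9711 to 21077 TPM in TL and 9895 to 22263 TPM in LS. By the rule for calls given below, 0 of its 10 genes were called different. Over all genes considered the shares called were 1.24% towards LS and 0.441% towards TL. Xist, the transcript of the inactive X chromosome, reached 10 TPM in 0 of the 111 neurons. Of the sympathetic list, Dbh, Hand2, Phox2a, Slc6a2 and Gata3 had medians of 0 in both segments.

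Transcripts of satellite glia, the cells that wrap each sensory neuron, were uneven between the segments. Their summed level over 10 genes ran from 44.7 to 36221 TPM in TL, with a median of 1509, and from 64.6 to 9536 TPM in LS, with a median of 409. The TL median was the higher in plates 2, 3, 4 and 6 and the LS median in plate 5. A sum of at least 1000 TPM was found in 28 TL and 28 LS neurons. None of the 10 glial genes was called different between the segments, where calls made up 1.24% (LS) and 0.441% (TL) of all genes considered. At such shares the lack of a call in 10 genes does not show equal levels. The part of the glial transcripts in the results below was not tested. Neurons with a sum of at least 1000 TPM were left out in 1 alternative setting, which also lost plates 3 and 4.

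A pair of LS neurons had Hoxd10 and Hoxd11 listed at 0, unlike the other 60, and was kept in all values unless stated. In the neuron from plate 4, Hoxc10 was at 1.00 TPM and Hoxd1, whose median was 0 in LS and 43.3 TPM in TL, was listed at 0, while Mrgprd was at 1189, Trarg1 at 2056 and Syt6 at 89.8 TPM. In the neuron from plate 6, Hoxc10 and Hoxd9 were listed at 0, while Hoxd1 was at 22.3, Trarg1 at 1041 and Cbln2 at 119 TPM. Chrna3, Uts2b and Npy1r were listed at 0 in both. Hoxa10 was at 12.7 and 12.2 TPM in that order.

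For each gene the difference LS minus TL of mean log2(TPM + 1) was taken within each of the 5 plates and averaged over plates. The SD given with it is the spread between plates and not an error of the segment difference. A gene was called when the plate-averaged difference was at least 2 in size and the plate differences had the same sign in all 5 plates. Neurons at 0 enter the mean, so a difference joins the share of neurons with the gene and its level. It is not a fold of mean TPM, as Trarg1 differed by -5.33 but by -2.12 as a log2 ratio of mean TPM. The 15189 genes with at least 1 TPM in at least 20% of the 111 neurons were considered, and a gene can pass that limit through 1 segment alone. Of these, 189 genes were called higher in LS (1.24%) and 67 higher in TL (0.441%). Counts of called genes in the lists below are to be read beside these shares. With shares this low, few or no calls in a short list are not a result about that list. The median difference over all genes considered was 0.08. Without the pair of LS neurons described above, 204 genes were called higher in LS and 71 higher in TL. With the deposited values not rescaled, the median difference was -0.17, and 112 genes were called higher in LS and 85 higher in TL. With members carrying at least 1000 TPM of glial transcripts left out, 21 TL and 34 LS neurons remained over all plates. This left out 8 of 9 TL neurons in plate 3 and 4 of 5 in plate 4, so that too few remained for a difference there. In plates 2, 5 and 6, the 3 that could be used, 236 genes were called higher in LS and 107 higher in TL. Values given below without neurons high in glial transcripts are from these 3 plates, and the part of the lost plates in them was not tested.

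Among the 5 largest differences towards LS were those of the acetylcholine receptor genes Chrna3 and Chrnb4, the urotensin 2B precursor Uts2b and the homeobox gene Hoxd10. Sequence upstream of the annotated start of these genes is shown here because they carry the contrast between the segments. Each run holds the 250 bases before the RefSeq start on the strand of the gene (RefSeq, GRCm38.p6), and capitals mark matches on either strand to the motifs TATAAA and CCAAT and to the GC box motif GGGCGG. Hoxd10 lies at chr2:74691641-74691890 on the plus strand, and the others lie on the minus strand, Chrna3 at chr9:55026563-55026812, Chrnb4 at chr9:55048545-55048794 and Uts2b at chr16:27370240-27370489.
Hoxd10: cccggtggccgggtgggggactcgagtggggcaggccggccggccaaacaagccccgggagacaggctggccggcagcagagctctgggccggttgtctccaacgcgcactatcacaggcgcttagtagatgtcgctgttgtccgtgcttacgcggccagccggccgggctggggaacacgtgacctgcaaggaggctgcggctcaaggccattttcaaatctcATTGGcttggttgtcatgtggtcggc
Chrna3: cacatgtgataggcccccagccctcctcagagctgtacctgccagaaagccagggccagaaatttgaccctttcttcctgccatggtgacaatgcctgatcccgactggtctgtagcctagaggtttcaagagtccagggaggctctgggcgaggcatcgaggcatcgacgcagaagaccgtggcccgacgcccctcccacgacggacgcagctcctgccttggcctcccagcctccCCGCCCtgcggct
Chrnb4: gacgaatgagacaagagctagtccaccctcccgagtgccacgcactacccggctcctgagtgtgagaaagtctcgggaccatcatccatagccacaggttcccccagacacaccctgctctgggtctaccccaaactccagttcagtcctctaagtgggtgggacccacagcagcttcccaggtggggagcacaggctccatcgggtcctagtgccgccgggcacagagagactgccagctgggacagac
Uts2b: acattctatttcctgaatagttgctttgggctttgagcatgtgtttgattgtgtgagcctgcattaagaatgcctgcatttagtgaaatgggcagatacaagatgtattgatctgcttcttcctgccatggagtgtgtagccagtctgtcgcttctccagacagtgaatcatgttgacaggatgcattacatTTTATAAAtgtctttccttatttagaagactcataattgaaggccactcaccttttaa

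The Uts2b run held 2 overlapping matches to TATAAA or its reverse complement TTTATA, the Hoxd10 run held 1 match to CCAAT and the Chrna3 run held 1 match to GGGCGG, whereas the Chrnb4 run held no match to these letters. Among all 32841 upstream runs of this length, TATAAA was found in 12.4%, CCAAT in 33.9% and GGGCGG in 32.7%. A match describes the letters of the sequence and was not tested as a site.

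**Figure D2:**
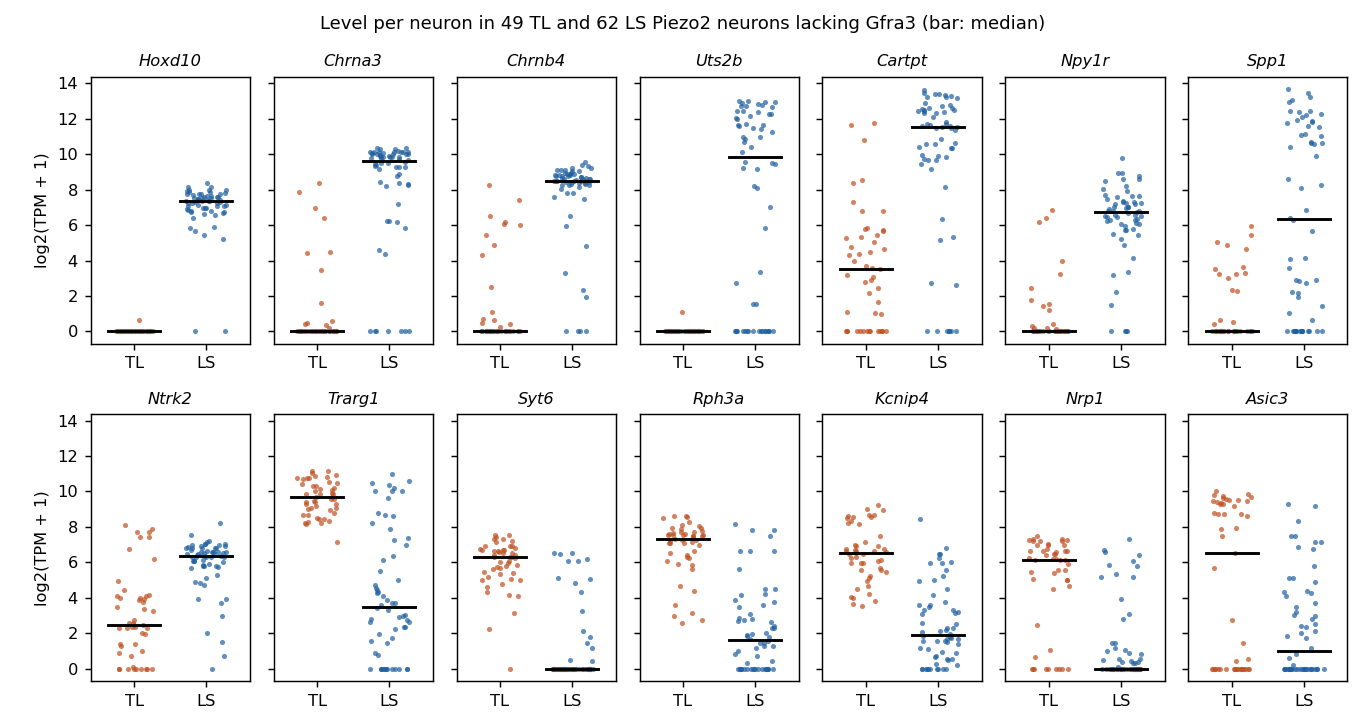
Level per neuron, as log2(TPM + 1), of 14 genes in the 49 TL (orange) and 62 LS (blue) neurons, with the median as a black bar. Hoxd10 separates the segments apart from 2 LS neurons at 0. Uts2b and Spp1 leave a group of LS neurons at or near 0. All genes shown other than Hoxd10 overlap between the segments.

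Caudal Hox genes were higher in the LS neurons and Hoxd1 was higher in the TL neurons. Hoxd10 (chr2:74691924-74695105) ranged from 0 to 0.577 TPM in TL, where 48 of 49 neurons were listed at 0, and from 0 to 327 TPM in LS, with a median of 159.9. It reached 10 TPM in 60 of 62 LS neurons and in 0 of 49 TL neurons. Allowing for 3 neurons where none was found, the TL share could be up to 6.12%. Hoxd10 differed by 7.02 ± 0.34 on the log2 scale (SD, n = 5 plates). Apart from the pair of LS neurons at 0, the groups did not overlap. Hoxd11 reached at most 0.0997 TPM in TL and had a median of 12.4 TPM in LS, where 43 neurons reached 10 TPM. Hoxc10 reached at most 1.10 TPM in TL and had a median of 15.3 TPM in LS, with 44 neurons at 10 TPM or more. Hoxc11 was listed at 0 in all 49 TL neurons and was above 0 in 51 LS neurons, with a median of 5.58 and a highest value of 38.5 TPM. These genes of paralogous groups 10 and 11 thus had medians of 0 in TL.

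Hoxa10 and Hoxd9 were found in both segments. Hoxa10 ranged from 0 to 45.7 TPM in TL (median 0) and from 5.95 to 62.1 TPM in LS (median 26.4), so the ranges overlapped, and it differed by 3.54 ± 0.97. Hoxd9 had medians of 5.99 TPM in TL and 40.6 in LS and differed by 2.70 ± 1.07. Hoxd1, an anterior gene that is used in nociceptors, ran the other way. It ranged from 0 to 231 TPM in TL (median 43.3) and from 0 to 122 TPM in LS (median 0), and differed by -3.48 ± 1.14. Over all genes considered, 1.24% were called higher in LS and 0.441% higher in TL. Of 39 Hox genes, 20 passed the limit on low values, of which 6 were called higher in LS and 1 higher in TL. Among those not called, Hoxb5 differed by -1.58 ± 0.32, Hoxb7 by -1.53 ± 1.29, Hoxa9 by 1.33 ± 1.29 and Hoxd8 by 1.00 ± 0.53. Hoxd10 and Hoxd11 share exonic sequence with the annotated gene Gm28309 and Hoxc10 with Hoxc5, on the same strand, and reads from the shared sequence cannot be assigned to 1 of the genes.

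The nicotinic acetylcholine receptor genes Chrna3 and Chrnb4, which encode the alpha3 and beta4 subunits of the ganglionic receptor, were high in most LS neurons and listed at 0 in most TL neurons. Chrna3 (chr9:55010111-55026562) ranged from 0 to 324 TPM in TL with a median of 0, and from 0 to 1295 TPM in LS with a median of 782. Chrnb4, its neighbour on chromosome 9, ranged from 0 to 302 TPM in TL with a median of 0, and from 0 to 744 TPM in LS with a median of 363. At 10 TPM, 6 TL and 55 LS neurons had Chrna3, and 9 TL and 55 LS neurons had Chrnb4. The genes went together within neurons, as 54 of the 55 LS neurons with Chrna3 and 5 of the 6 TL neurons with Chrna3 also had Chrnb4. Chrna3 differed by 7.23 ± 0.92 and Chrnb4 by 6.44 ± 1.22 on the log2 scale. Chrna3 is also a gene of sympathetic neurons, while Dbh and the other sympathetic genes named above had medians of 0. Tmem35a, which encodes a chaperone for the assembly of nicotinic receptors, was called in the other direction, with medians of 73.0 TPM in TL and 0 in LS and a difference of -3.98 ± 1.24.

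Among peptide precursors, 10 of 20 listed genes passed the limit on low values. Uts2b, Cartpt, Adm, Adcyap1 and Igf1 were called higher in LS and Nmb higher in TL. The shares called over all genes considered were 1.24% and 0.441% in that order. Uts2b ranged from 0 to 1.16 TPM in TL, and from 0 to 8274 TPM in LS with a median of 933. It was above 0 in 1 TL neuron and in 44 LS neurons, of which 40 reached 10 TPM, and the LS neurons therefore split into a larger group with Uts2b and a smaller one without. Its difference was 7.12 ± 2.04, and from 4.96 to 10.29 by plate.

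Cartpt, the precursor of the CART peptides, ranged from 0 to 3503 TPM in TL (median 10.3) and from 0 to 12692 TPM in LS (median 2921), with a difference of 6.54 ± 1.93, and of 3.88 without neurons high in glial transcripts. Both segments thus held Cartpt neurons, 25 in TL and 53 in LS at 10 TPM, and the level was higher in LS. Adm, the precursor of the vasodilator adrenomedullin, had a median of 0 in TL (highest 56.6 TPM) and 87.3 in LS (highest 395 TPM), a difference of 4.36 ± 1.18. Adcyap1, which encodes the peptide PACAP, had medians of 80.4 TPM in TL and 745 in LS, and its difference of 3.82 ± 2.16 was as low as 0.31 in 1 plate. Igf1, insulin-like growth factor 1, stayed under 10 TPM in all TL neurons and reached 10 TPM in 28 LS neurons, with a difference of 2.15 ± 0.96.

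Nmb, the neuromedin B precursor, ran the other way. It ranged from 0.996 to 2200.4 TPM in TL (median 964) and from 0 to 1647 TPM in LS (median 44.6), and differed by -3.08 ± 1.21. It reached 10 TPM in 42 of 49 TL and 54 of 62 LS neurons, so that most neurons of both segments had the transcript, and its exons overlap those of Sec11a. Calca, which encodes CGRP, was abundant in both, with medians of 5538 TPM in TL and 11576 in LS, and its plate differences of -2.41 to 3.77 had no common sign. Calcb, which encodes a related peptide, differed by 0.27 ± 1.48. Genes such as Uts2b, Igf1 and Adm passed the limit through the LS neurons. Of 14 genes of non-peptidergic nociceptors 8 passed the limit on low values, and Ctxn3 was the one called, higher in TL. Over all genes considered, 1.24% were called higher in LS and 0.441% higher in TL. Ctxn3 differed by -2.60 ± 2.30 but was not called in 7 of the 23 alternative settings. The ATP-gated channel P2rx3 differed by -0.89 ± 1.11.

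Among further genes with the largest differences towards LS, Npy1r, the Y1 receptor for neuropeptide Y, had a median of 0 in TL (highest 113 TPM) and 104 TPM in LS (highest 866), with 4 TL and 54 LS neurons at 10 TPM or more. Its difference of 5.56 ± 0.56 had the smallest SD over plates after Hoxd10 among the 12 largest towards LS. Spp1, which encodes osteopontin, ranged from 0 to 61.4 TPM in TL and from 0 to 12933 TPM in LS, with medians of 0 and 79.2, and differed by 5.17 ± 2.03. In LS 36 neurons reached 10 TPM. Aqp1, the water channel aquaporin 1, had medians of 98.5 TPM in TL and 802 in LS and differed by 4.46 ± 1.89. Fxyd6, a regulator of the sodium pump, had medians of 0 and 394 TPM, Olfm2, an olfactomedin, 1.26 and 207 TPM, and Bex1, an adaptor of the BEX family, 0 and 185 TPM in TL and LS. Their differences were 5.17 ± 1.34, 5.09 ± 0.87 and 4.57 ± 0.75 in that order. Without neurons high in glial transcripts the Aqp1 difference was 1.47 and was no longer called.

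Several of the genes with the largest differences towards TL were found in all TL neurons and in part of the LS neurons. Trarg1, a regulator of glucose transporter trafficking, ranged from 140.3 to 2287 TPM in TL (median 816) and from 0 to 2056 TPM in LS (median 10.3), and differed by -5.33 ± 1.03. Kcnip4, an accessory protein of A-type potassium channels, ranged from 10.6 to 608 TPM in TL (median 92.8) and from 0 to 344 TPM in LS (median 2.71), and differed by -3.87 ± 0.79. All 49 TL neurons had at least 10 TPM of Trarg1 and Kcnip4, and 31 and 18 of the 62 LS neurons did. Rgs10, which speeds the end of G protein signals, and Galnt14, a glycosyltransferase, were also at 10 TPM or more in all 49 TL neurons, with TL medians of 102 and 60.6 TPM, LS medians of 4.34 and 1.47 TPM, and differences of -3.97 ± 0.82 and -3.93 ± 0.52.

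Syt6 and Rph3a, genes of synaptic vesicle release, were lower in LS. Syt6, a synaptotagmin, ranged from 0 to 187 TPM in TL (median 78.0) and from 0 to 90.1 TPM in LS (median 0), with 46 TL and 10 LS neurons at 10 TPM, and differed by -4.67 ± 1.07. Rph3a, which encodes rabphilin, had medians of 158 TPM in TL and 2.05 in LS and differed by -4.57 ± 1.57, and by -2.99 without neurons high in glial transcripts. The remaining genes of this group were Pcp4l1 (-4.49 ± 2.58), Ly86 (-4.00 ± 2.03), Ppm1j (-3.67 ± 2.21), Nrp1 and Rcan2, a regulator of calcineurin (-3.49 ± 1.38). Of these Pcp4l1, Ly86 and Ppm1j had the widest spread over plates, with plate differences as small as -1.50, -1.55 and -0.02.

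Of 18 mechanosensitive channels and partners, 12 passed the limit on low values, of which Kcnk2 was called higher in LS and Asic3 higher in TL. The shares called over all genes considered were 1.24% and 0.441% in that order. Asic3, an acid-sensing channel of visceral and muscle afferents, ranged from 0 to 1037 TPM in TL (median 89.8) and from 0 to 637 TPM in LS (median 1.01), and differed by -2.69 ± 1.07. The TL neurons fell apart into 26 at 10 TPM or more and the others under that level, while 19 LS neurons reached 10 TPM. Without neurons high in glial transcripts its difference was -1.52 and was no longer called. Kcnk2, the stretch-gated potassium channel TREK-1, had medians of 0.105 TPM in TL (highest 16.1) and 11.9 in LS (highest 112), and differed by 2.35 ± 0.34. Tmem63b and Tmem63c, of a family of osmotically and mechanically gated channels, had differences of 0.03 ± 0.41 and -0.01 ± 0.53. Piezo1 stayed at or under 1.52 TPM in every neuron.

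All 11 receptor genes for neurotrophic factors passed the limit on low values. For this list and the next, calls made up 1.24% (LS) and 0.441% (TL) of all genes considered. Ntrk2, the BDNF receptor TrkB, ranged from 0 to 276 TPM in TL (median 4.58) and from 0 to 294 TPM in LS (median 81.3), and differed by 2.62 ± 1.64. It reached 10 TPM in 19 TL and 57 LS neurons. Gfra2, the neurturin receptor, was called higher in TL at -2.06 ± 1.10, with 17 TL and 3 LS neurons at 10 TPM, but was not called in 12 of the 23 alternative settings. Ntrk3, the receptor TrkC, reached 10 TPM in 14 TL and 3 LS neurons and differed by -1.86 ± 0.60, short of a call. Of the 15 genes of myelinated neurons that passed, Spp1 was the only one called, and the neurofilament genes Nefl and Nefm differed by 0.14 ± 0.36 and -0.04 ± 0.43.

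All 13 sodium channel subunits passed the limit on low values and 0 were called, with a median of -0.01. For all lists of this paragraph, the shares called over all genes considered were 1.24% (LS) and 0.441% (TL). At such shares 0 calls in 13 genes is no result about the family. Scn10a and Scn11a, the channels Nav1.8 and Nav1.9 of nociceptors, had differences of 0.19 ± 1.39 and -0.25 ± 1.31. Of 36 potassium channel genes 34 passed, and Kcnc2, Kcnk3 and Kcnn2 were called higher in LS and Kcnc4 higher in TL. Kcnn2, a calcium-activated channel, ranged from 0 to 23.7 TPM in TL (median 2.05) and from 1.96 to 53.7 in LS (median 29.0), and differed by 2.52 ± 0.35. Kcnc4, a fast Kv3 channel, ran the other way, with medians of 34.9 TPM in TL and 0.980 in LS and a difference of -2.76 ± 0.93. Kcnk3, the acid-sensitive TASK-1 channel, differed by 2.52 ± 0.66, and Kcnc2 by 2.61 ± 1.48 with 1 plate at 0.01. Kcnc2 was not called in 8 of the 23 alternative settings, among them at 1.46 without neurons high in glial transcripts, and Kcnn2 was then at 1.98, short of a call. Of 17 calcium and HCN channel genes that passed, Cacng5 alone was called, at 2.76 ± 1.23, and Cacna2d1, the gabapentin-binding subunit, was higher in LS in all 5 plates without reaching a call, with medians of 27.3 TPM in TL and 80.9 in LS and a difference of 1.67 ± 0.44.

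Of 32 ligand-gated and TRP channel genes 30 passed the limit on low values, and 6 were called higher in LS and 0 higher in TL. The shares called over all genes considered were 1.24% and 0.441% in that order. Beside Chrna3 and Chrnb4 the 6 genes were the serotonin receptor subunits Htr3a and Htr3b, the ATP-gated channel P2rx2 and the GABA receptor subunit Gabra3. Htr3a was abundant in both, from 0 to 4076 TPM in TL (median 499.6) and from 0 to 4360.2 TPM in LS (median 2203), and differed by 3.06 ± 2.11. P2rx2 reached 10 TPM in 2 TL and 31 LS neurons and differed by 2.35 ± 0.87, and by 1.74, short of a call, without neurons high in glial transcripts. Htr3b differed by 2.11 ± 0.69 and Gabra3 by 2.16 ± 0.75, and these were not called in 12 and 7 of the 23 alternative settings. Trpv1, the capsaicin receptor, reached 10 TPM in 20 TL and 27 LS neurons and differed by 0.99 ± 2.39.

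Of 52 G protein-coupled receptors of gut afferents, 34 passed the limit on low values. Beside them, 1.24% of all genes considered were called higher in LS and 0.441% higher in TL. With Npy1r, the G protein-coupled oestrogen receptor Gper1 and the adenosine receptor Adora2a were called higher in LS, and the prostaglandin receptor Ptger3 and the neuropeptide Y receptor Npy2r higher in TL. Npy2r, the Y2 receptor, had medians of 7.86 TPM in TL (highest 101) and 0 in LS (highest 37.2), with 23 TL and 5 LS neurons at 10 TPM and a difference of -2.19 ± 1.15. It was not called in 6 of the 23 alternative settings, among them at -1.42 without neurons high in glial transcripts. Gper1 was at 10 TPM or more in 1 TL neuron and 37 LS neurons and differed by 3.41 ± 1.13. Ptger3 reached 10 TPM in 21 TL and 3 LS neurons and differed by -2.50 ± 0.69, and Adora2a, not called in 7 of the 23, differed by 2.11 ± 0.95.

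Among axon guidance and adhesion genes, 32 of 44 passed the limit on low values. Cntn5, Ncam2, Sema3d and Tenm3 were called higher in LS and Nrp1 higher in TL. The shares called over all genes considered were 1.24% and 0.441% in that order. Nrp1, the semaphorin co-receptor neuropilin 1, ranged from 0 to 178 TPM in TL (median 70.0) and from 0 to 157 TPM in LS (median 0), with 37 TL and 11 LS neurons at 10 TPM, and differed by -3.64 ± 1.21. Sema3d, a secreted semaphorin, stayed at or under 9.21 TPM in TL and reached 10 TPM in 28 LS neurons. Cntn5, a contactin, differed by 3.20 ± 0.89, Ncam2, a homophilic adhesion molecule, by 2.81 ± 1.07, Sema3d by 2.15 ± 0.89 and Tenm3, a teneurin, by 2.10 ± 0.36. Tenm3 was at 1.98, short of a call, without neurons high in glial transcripts.

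The transcription factor genes called were Esr1, Tbx3, Tbx2 and Cux2, all higher in LS, of 28 of 39 listed genes that passed. Over all genes considered, 1.24% were called higher in LS. Esr1, the oestrogen receptor alpha, had medians of 0.900 TPM in TL (highest 26.6) and 39.5 in LS (highest 79.8), with 5 TL and 54 LS neurons at 10 TPM, and differed by 3.35 ± 1.06. Tbx3 differed by 3.01 ± 0.96, Tbx2, its neighbour in the T-box family, by 2.61 ± 1.05 and Cux2 by 2.46 ± 0.92. The homeobox gene Isl2 was at 10 TPM or more in all 111 neurons and lower in LS in all 5 plates, with medians of 279 and 113 TPM in TL and LS and a difference of -1.37 ± 0.42, short of a call.

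Of 26 genes for synaptic vesicles and release, 23 passed the limit on low values. Sv2a and Sv2b were called higher in LS and Syt6 and Syt2 higher in TL. For both lists of this paragraph, the shares called over all genes considered were 1.24% (LS) and 0.441% (TL). Sv2a, a vesicle glycoprotein, had medians of 9.49 TPM in TL and 72.9 in LS and differed by 2.88 ± 0.89, and Sv2b, not called in 10 of the 23 alternative settings, differed by 2.17 ± 1.33, and by 3.58 without neurons high in glial transcripts. Syt2, a fast calcium sensor, differed by -2.11 ± 1.28, and by -0.91, short of a call, without neurons high in glial transcripts. Cplx1 and Snap25 of the common release machinery had differences of 0.06 ± 0.70 and -0.02 ± 0.41. Of 10 immediate early and injury genes that passed, 0 were called, and Fos had medians of 544 TPM in TL and 386 in LS.

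Each subtype of colonic neuron named in the study has a marker gene. These genes were chosen on the same neurons, so the counts of the 7 markers are a description. At 10 TPM, Fam19a1 was found in 25 TL neurons (51.0%, exact interval 36.3 to 65.6%) and 4 LS neurons (6.45%, 1.79 to 15.7%). The Fam19a1 difference of -2.81 ± 0.93 was -0.28 without neurons high in glial transcripts, in 3 of the 5 plates, and was then not called. Trpa1, the irritant receptor, was found in 20 TL (40.8%) and 3 LS neurons (4.84%), and Mrgprd, a Mas-related receptor of non-peptidergic nociceptors, in 12 TL (24.5%) and 1 LS neuron (1.61%). That LS neuron was the one from plate 4 without Hoxd10. Cbln2 was found in 7 TL and 3 LS neurons, of which 1 was the LS neuron from plate 6 described above, and Smr2 in 3 neurons of each segment. Hpse, which encodes heparanase, was found in 41 LS neurons (66.1%, 53.0 to 77.7%) and in 0 of 49 TL neurons. Allowing for 3 neurons where none was found, the TL share could be up to 6.12%. Ntm was found in 5 LS neurons and in 0 of 49 TL neurons, with the same limit.

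**Figure D3:**
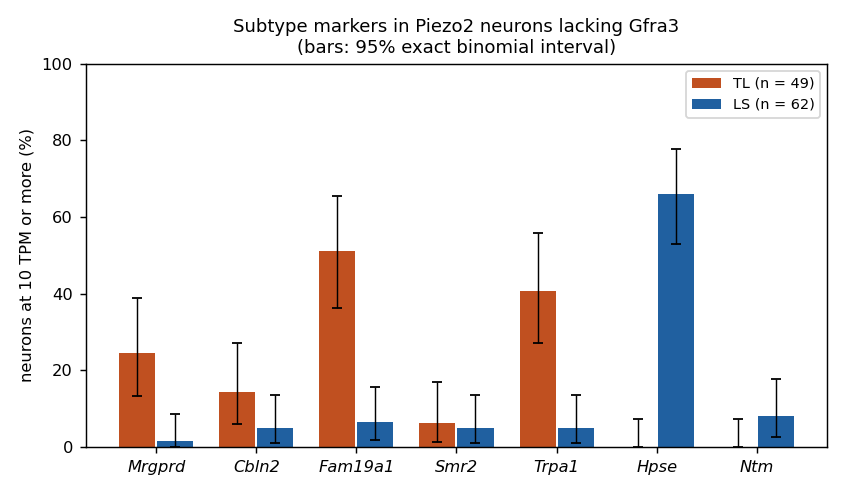
Share of the 49 TL (orange) and 62 LS (blue) neurons with at least 10 TPM of each of 7 subtype markers, with exact 95% binomial intervals for counting error. Fam19a1, Trpa1 and Mrgprd are found in more TL neurons, and Hpse in 41 LS and 0 TL neurons.

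Within TL the 7 markers overlapped in part. All 12 Mrgprd neurons also had Trpa1, P2rx3, Scn10a and Calca, 1 had Fam19a1, 0 had Cbln2 and 1 had Asic3. Of the 25 Fam19a1 neurons, 23 had Asic3, 24 had Calca and 4 had Trpa1. The 7 Cbln2 neurons all had Ntrk2, and 0 of the 7 had Calca, Scn10a or P2rx3. These 7 were the TL neurons without Calca at 10 TPM. No TL neuron had Mrgprd and Cbln2 together, and all 49 had Nefh, the heavy neurofilament.

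Of the 62 LS neurons, 61 had Calca, 60 Hoxd10, 59 Scn10a, 57 Ntrk2 and 54 Npy1r, and each of these was found in all 41 Hpse neurons. Chrna3 was found in 55 LS neurons and in 39 of the 41 with Hpse, and 0 of the 10 LS neurons with Syt6 had Hpse. Among the 40 Uts2b neurons 39 had Hpse, 39 had Chrna3 and 32 had Spp1, and 20 LS neurons had neither Hpse nor Uts2b. Trpv1 was found in 27 LS neurons, of which 16 had Uts2b and 26 had Tac1, the substance P precursor. Of the 7 markers, 1 was found in 32 TL and 50 LS neurons, 2 were found in 16 TL and 5 LS neurons, 3 in 1 TL neuron, and 0 markers in 7 LS neurons and no TL neuron.

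The differences between segments were also taken without neurons that had Mrgprd, Cbln2 or Trpv1. Without Mrgprd neurons, 37 TL and 61 LS neurons remained, and 167 genes were called higher in LS and 83 higher in TL. Without Mrgprd or Cbln2 neurons, 30 TL and 58 LS neurons remained, and the counts were 201 and 114. Of the 189 genes called higher in LS, 149 were shared with those 201, and of the 67 called higher in TL, 57 were shared with those 114. Chrna3 then differed by 7.31, Uts2b by 7.62, Hoxd10 by 7.26, Trarg1 by -5.31 and Syt6 by -5.03, while Htr3a, which had differed by 3.06, differed by 1.74 and was not called. Without the neurons with Trpv1, 29 TL and 35 LS neurons remained over all plates, and the 4 plates that could be used gave 224 and 94 called genes.

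The same calculation was made in Gfra3 neurons, 85 from TL and 73 from LS with at least 9500 genes and Gfra3 at 10 TPM or more, some of which also had Piezo2. Of 14999 genes considered there, 24 were called higher in LS (0.16%) and 53 higher in TL (0.353%). Of the 189 genes called higher in LS in the Piezo2 neurons lacking Gfra3, 18 were also called higher in LS in Gfra3 neurons and 151 had the same sign, with a median of 0.56 there against 2.52. Of the 67 called higher in TL, 8 were also called and 58 had the same sign, with a median of -0.77 there against -2.49. No gene was called in opposite directions. Whether the differences differ between the sets was not tested.

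Side by side, most of the called Hox genes had like values in both sets. Hoxd10 differed by 7.02 ± 0.34 in the Piezo2 neurons lacking Gfra3 and by 6.40 ± 0.39 in the Gfra3 neurons, Hoxc10 by 3.62 ± 0.63 and 3.94 ± 0.23, and Hoxd9 by 2.70 ± 1.07 and 3.26 ± 0.50. Of the 7 Hox genes called, Hoxc11 was the one not called in Gfra3 neurons, at 1.08 ± 0.25. P2rx2 was called in both, at 2.35 ± 0.87 and 3.07 ± 0.50, and Npy1r at 5.56 ± 0.56 and 2.70 ± 0.62. Nrp1, Rcan2, Tmem35a, Ly86, Pcp4l1 and Hoxd1 were called higher in TL in both sets.

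Chrna3 and Uts2b had other values in Gfra3 neurons. Chrna3 had medians of 170.3 TPM in TL and 224 in LS Gfra3 neurons, so that it was present in both segments there, and it differed by 1.29 ± 0.45. Uts2b and Hpse had medians of 0 in both segments of the Gfra3 neurons, where they differed by -0.11 ± 0.19 and -0.09 ± 0.09. Spp1 likewise differed by -0.54 ± 0.53, against 5.17 ± 2.03 in the Piezo2 neurons lacking Gfra3. Towards TL, Rgs10 and Galnt14 had medians of 98.4 and 49.1 TPM in TL and 87.5 and 38.1 TPM in LS Gfra3 neurons and differed by 0.08 ± 0.17 and -0.10 ± 0.28 there, against -3.97 and -3.93. Ntm was called higher in LS in Gfra3 neurons, at 2.31 ± 1.14, and Trpa1 higher in TL, at -2.19 ± 1.45. In the Piezo2 neurons lacking Gfra3, Ntm differed by 0.38 ± 0.20, and Trpa1 by -1.83 ± 1.65.

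**Figure D4:**
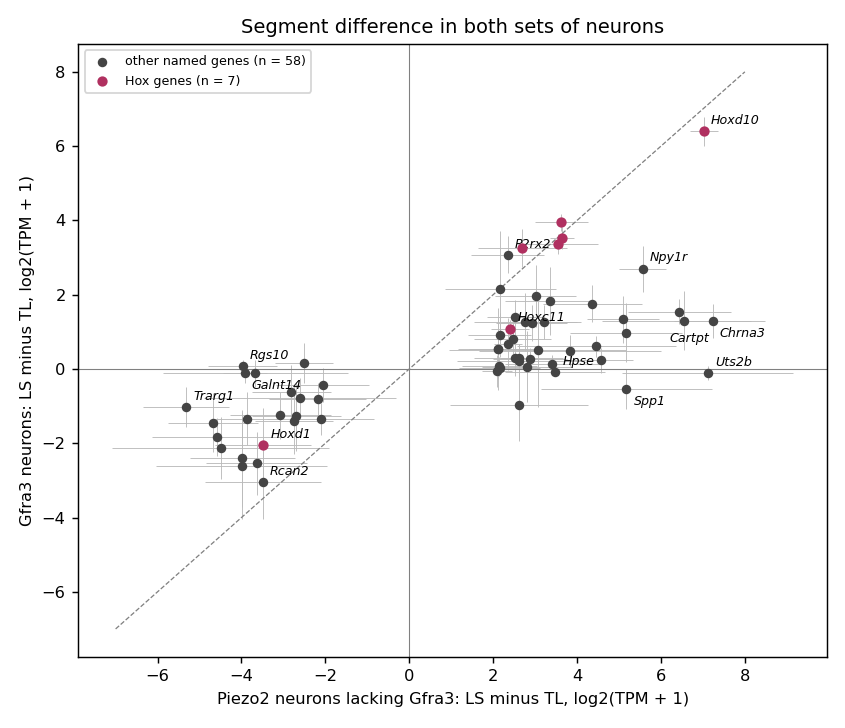
Difference LS minus TL of mean log2(TPM + 1) in Gfra3 neurons against that in Piezo2 neurons lacking Gfra3, for the 65 named genes called in the latter, with SD over 5 plates as bars. The dashed line marks equal differences. The Hox genes (red) other than Hoxc11 and Hoxd1 lie near this line, while Chrna3, Uts2b and Spp1 lie far below it.

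Among markers of macrophages and of endothelial and mural cells, C1qb was the one called different. Calls made up 1.24% (LS) and 0.441% (TL) of all genes considered. With 4 macrophage genes and 3 endothelial and mural genes that passed, the lack of further calls is no result about these cells. The summed level of 10 macrophage genes had medians of 5.96 TPM in TL and 30.3 TPM in LS, and C1qb alone of the 4 that passed was called, at 2.92 ± 0.85, with 3 TL and 42 LS neurons at 10 TPM. Csf1r, the receptor for a macrophage growth factor, had medians of 0 in TL and 0.428 TPM in LS and differed by 0.56 ± 0.59, and the other 8 genes had medians of 0 in both segments. The part of macrophage transcripts in the C1qb difference was not tested. C1qb was also present in Gfra3 neurons, with medians of 37.8 TPM in TL and 61.9 in LS. The endothelial and mural genes summed to medians of 7.88 TPM in TL and 3.20 TPM in LS, with highest sums of 624 TPM in TL and 841 TPM in LS and Pecam1, Cldn5 and Cdh5 at a median of 0. Among satellite glia genes, Apoe differed by -1.41 ± 2.51, with plate differences from -4.45 to 2.03. In Gfra3 neurons 4 of the 10 glial genes were called higher in TL, against 0.353% of all genes considered there.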

How the data were processed

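The authors deposited 1 table of log2 expression values per gene and neuron, and their submission notes name bcl2fastq 2.15.0.4, STAR 2.4.1 and featureCounts 1.4.4. The deposited values were not on a common total, since 2 to the power of the value minus 1 summed to between 218865 and 11159100 per neuron, and each neuron was rescaled to a TPM total of 1000000. With gene lengths of GENCODE M21, 65.3% of values above 0 came out as whole reads within 1e-06. The table held 325 of the 399 labelled neurons, while 74 neurons and 13 controls of bath solution were not used here. Counting with strand is not stated in the sources used here.

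For each gene the LS minus TL difference of mean log2(TPM + 1) was averaged over plates 2 to 6, each with at least 3 neurons of both segments. The calculation was tested on simulated data. Shares have 95% exact binomial intervals for counting error. The limit of 6.12% given in the text where 0 of 49 TL neurons had a gene is another measure. It allows for 3 neurons where none was found and is not the exact interval drawn in the figure. The members, gene lists and tests were chosen with earlier results of these data known. Named were the 12 largest called differences in each direction, up to 6 called genes and the 2 highest genes of each list, the 7 subtype markers and the Hox genes. Ntrk3, Trpv1, Piezo1, Tac1, Nefh, the single markers of other cells and the genes of the closing section were added after their values were seen. Alternatives changed the rule, pseudocount, filter, scaling, strata and neurons, and 3 of them were added after seeing the data. Python 3.11.15, numpy 2.4.6, pandas 2.3.3, SciPy 1.17.1 and matplotlib 3.10.9 were used.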

Additional observations from a re-analysis of the deposited data

How the results depend on the processing

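No paired analysis was possible because the labels give the neurons no animal and the result comes from no test. The 189 genes called higher in LS and the 67 higher in TL depended on the pseudocount, with 520 and 183 genes at a pseudocount of 0.1 and 28 and 21 genes at 10. Deposited values without rescaling gave 112 genes higher in LS. Genes higher in TL numbered 114 without Mrgprd or Cbln2 neurons and 107 without neurons high in glial transcripts. Leaving out 1 plate at a time gave 162 to 219 genes higher in LS and 61 to 81 higher in TL. Of the 65 named genes called, 0 reversed in any of 23 alternatives and 20 were called in all of them. Leaving out 1 plate could not reverse a gene with the same sign in all 5 plates. A changed detection filter left every difference as it was. At a pseudocount of 10, 38 of the 65 were not called. With the ratio of mean TPM in place of mean log2 values 12 were not called, Ntrk2 (1.32), Htr3a (1.12), Htr3b (0.94), Adcyap1 (1.79), Tbx3 (1.39), Sv2b (1.18), Kcnc2 (1.66), Gabra3 (1.91), Adora2a (1.54), Ly86 (-4.31), Ctxn3 (-3.93) and Syt2 (-1.98), where a value of at least 2 in size lacked the common sign. Without neurons high in glial transcripts, and thus in plates 2, 5 and 6 alone, 13 were not called, Aqp1 (1.47), Kcnc2 (1.46), Kcnn2 (1.98), P2rx2 (1.74), Htr3b (1.79), Tenm3 (1.98), Ppm1j (-3.52), Asic3 (-1.52), Gfra2 (-1.72), Ctxn3 (-3.24), Npy2r (-1.42), Syt2 (-0.91) and Fam19a1 (-0.28), with the same exception. Calls were lost without plate 2 for Htr3b (1.99), Tenm3 (1.97), Npy2r (-1.92) and Syt2 (-1.86), without plate 4 for Gfra2 (-1.96), Npy2r (-1.98) and Syt2 (-1.73), without plate 5 for Igf1 (1.90), Sema3d (1.98), Gabra3 (1.95), Htr3b (1.99), Sv2b (1.82) and Gfra2 (-1.79) and without plate 6 for Gabra3 (1.97), Adora2a (1.77), Sv2b (1.87), Gfra2 (-2.00) and Ctxn3 (-1.95). The causes were not tested. TL and LS are 1 sample each, and the plates share the cultures' mice to an extent that the labels do not give, so no difference has an animal-level error.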

Other observations

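Further called genes, named after their values were seen, included Th, which encodes tyrosine hydroxylase, the first enzyme of catecholamine synthesis. It had medians of 3.08 TPM in TL and 208 TPM in LS and differed by 4.26 ± 2.04, while Dbh, which makes noradrenaline, had a median of 0 in both segments. Ache, acetylcholinesterase, had medians of 261 TPM in TL and 502 TPM in LS and differed by 2.28 ± 1.57, and Slc5a7, the choline transporter, had medians of 0 and 20.9 TPM and differed by 2.67 ± 1.37. Pgr, the progesterone receptor, differed by 2.02 ± 0.80. Npy5r, the Y5 receptor for neuropeptide Y, reached 10 TPM in 0 of 49 TL neurons, which allows a share of up to 6.12%, and in 29.0% of LS neurons, and differed by 2.07 ± 0.44.

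Higher in TL were Nrn1, which encodes the growth-associated protein neuritin, with medians of 735 TPM in TL and 88.8 TPM in LS and a difference of -2.69 ± 0.34, and Prkar2b, a regulatory subunit of protein kinase A, with medians of 149.8 TPM in TL and 7.01 TPM in LS and a difference of -3.41 ± 0.71. Ccl2, a chemokine, had medians of 34.1 TPM in TL and 4.49 TPM in LS and differed by -2.43 ± 0.28. These differences had the same sign in all 5 plates.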
